A study of Mus musculus with 6 samples.

Results

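Endothelial genes were followed in RNA-seq libraries of mouse tailbud, the posterior end of the embryo that contains the presomitic mesoderm (PSM). The set was 10 named genes (Kdr, Pecam1, Cdh5, Tek, Tie1, Etv2, Emcn, Cd34, Sox18 and Lyve1), looked up by symbol among the 35506 genes of the expression table, and all 10 were found and passed the filter on low reads. The 6 libraries came from single embryos at 8 somites (E8.5) on the FVB/NJ strain: 3 wild-type embryos (WT, Smchd1+/+) and 3 embryos homozygous for MommeD43 (Smchd1 MommeD43/MommeD43), a missense allele of the chromatin repressor gene Smchd1 recovered in a chemical (ENU) mutagenesis screen. Replicate 1 of each genotype was a male, and both males had the same mother. Replicates 2 and 3 of each genotype were females, each from a different mother, so that sex and litter cannot be told apart. The series was made to read Hox gene expression in this tissue. The question asked here was whether endothelial genes differed between genotypes and how they moved together from embryo to embryo.

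Endothelial cells line blood vessels. In the early embryo they arise from mesoderm, in close relation to the first blood cells: the ETS-family transcription factor Etv2 acts briefly in the precursors of both, and vascular endothelial growth factor (VEGF) signals through the receptor encoded by Kdr. Committed cells then express adhesion and junction proteins, the Tie receptors for angiopoietins, and transcription factors such as Sox18. At this stage vessels of the yolk sac and the paired dorsal aortae are forming, and primitive red cells appear in the blood islands of the yolk sac.

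Promoter sequences in the RefSeq table (GRCm38.p6) were matched for 6 of the 10 genes, Kdr, Tek, Tie1, Etv2, Cd34 and Emcn. Entries for Pecam1, Cdh5, Sox18 and Lyve1 were not used here. The promoters of the 3 receptor genes and of Etv2 are shown because Etv2 binds the ETS core. As described further on, WT replicate 1 was the lowest library for the receptors but not for Etv2. Each sequence is the 250 bases before the RefSeq transcript start, on the strand of the gene. The ETS core GGAA, read on both strands (as GGAA or TTCC), is in capitals. For Tie1 the RefSeq start lies inside the gene as measured here (chr4:118471191-118490061), and most of the window overlaps that gene.
Kdr, chr5:75978456-75978705, minus strand: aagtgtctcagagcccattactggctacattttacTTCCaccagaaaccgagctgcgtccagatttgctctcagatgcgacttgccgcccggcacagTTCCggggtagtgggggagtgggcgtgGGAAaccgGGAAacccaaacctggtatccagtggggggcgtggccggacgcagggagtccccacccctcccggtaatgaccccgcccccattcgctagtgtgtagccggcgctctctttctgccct
Tek, chr4:94739039-94739288, plus strand: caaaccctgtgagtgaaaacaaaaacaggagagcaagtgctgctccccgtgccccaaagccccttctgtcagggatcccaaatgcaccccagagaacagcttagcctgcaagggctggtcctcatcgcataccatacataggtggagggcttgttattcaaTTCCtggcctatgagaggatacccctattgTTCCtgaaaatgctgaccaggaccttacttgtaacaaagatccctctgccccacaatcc
Tie1, chr4:118489850-118490099, minus strand: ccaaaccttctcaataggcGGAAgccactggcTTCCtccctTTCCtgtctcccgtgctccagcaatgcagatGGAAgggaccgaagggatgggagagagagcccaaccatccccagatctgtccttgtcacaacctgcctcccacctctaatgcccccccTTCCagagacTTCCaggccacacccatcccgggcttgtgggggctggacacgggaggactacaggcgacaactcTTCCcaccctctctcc
Etv2, chr7:30635853-30636102, minus strand: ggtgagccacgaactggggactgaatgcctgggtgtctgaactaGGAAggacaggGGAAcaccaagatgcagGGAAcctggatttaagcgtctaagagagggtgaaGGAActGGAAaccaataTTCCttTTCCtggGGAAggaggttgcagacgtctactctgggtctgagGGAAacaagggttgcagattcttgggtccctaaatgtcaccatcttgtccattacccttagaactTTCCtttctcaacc
The ETS core occurred 10 times in the Etv2 window, 7 times in that of Tie1, 5 times in that of Cd34, 4 times in those of Kdr and Emcn, and 2 times in that of Tek. A match of these 4 letters is common: 93.4% of the 32851 promoters of this length in the table held at least 1, with a median of 3, and 33.4% held 4 or more. The letters ACAAT (a core bound by SOX factors, either strand) occurred 2 times in the Tek window and 1 time each in those of Cd34 and Emcn, and in 27.7% of all promoters. The letters GATAA (a core bound by GATA factors, either strand) occurred in none of the 6 windows and in 22.6% of all promoters. These counts describe letters in a window and say nothing about binding.

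The libraries held between 10957916 and 47298348 reads, a 4.32-fold range, with MommeD43 replicate 1 the shallowest and MommeD43 replicate 2 the deepest. In the labels, the tissue entry gives tailbud and the titles give PSM, but the source entry gives NSCs, the neural stem cells used elsewhere in the study. The tailbud genes T, Msgn1 and Cdx2 lay at 117 to 188, 76.2 to 123 and 148 to 183 RPKM (reads scaled to exon length and library size). Of the 7 genes of a neural stem cell list, Pax6, Sox1 and Olig2 lay at or under 0.337 RPKM in every library, and Sox2 (11.8 to 15.4 RPKM), Nes (10.4 to 12.1), Hes5 (6.49 to 15.3) and Fabp7 (0.778 to 3.76) were detected. Smchd1 RNA, which a missense allele need not change and which therefore does not check the labels, was at 7.15 to 8.58 RPKM (log2 fold change −0.09 ± 0.09 (SE), adjusted p = 0.999, limma).

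By mean level over the 6 libraries, on the RPKM scale that corrects for gene length, the order was Etv2 (15.9 RPKM), Kdr (14.2), Cdh5 (7.75), Sox18 (4.46), Tek (4.45), Tie1 (3.08), Cd34 (2.42), Pecam1 (2.15), Lyve1 (1.21) and Emcn (0.223). Only for Kdr and Cdh5 did the ranges of 2 neighbours in this order stay apart. Etv2 was above Kdr in 4 of 6 libraries and Sox18 above Tek in 4 of 6, whereas each of Kdr, Cdh5, Tie1, Pecam1 and Lyve1 was above the next lower gene in 6 of 6. All 10 genes are on autosomes, and their exons shared no base with another gene except in Cd34 (chr1:194938819-194961279), of which 2.03% lay under Gm16897 on the opposite strand. In bulk tissue, fewer endothelial cells and less RNA of these genes per cell cannot be told apart.

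**Figure D1:**
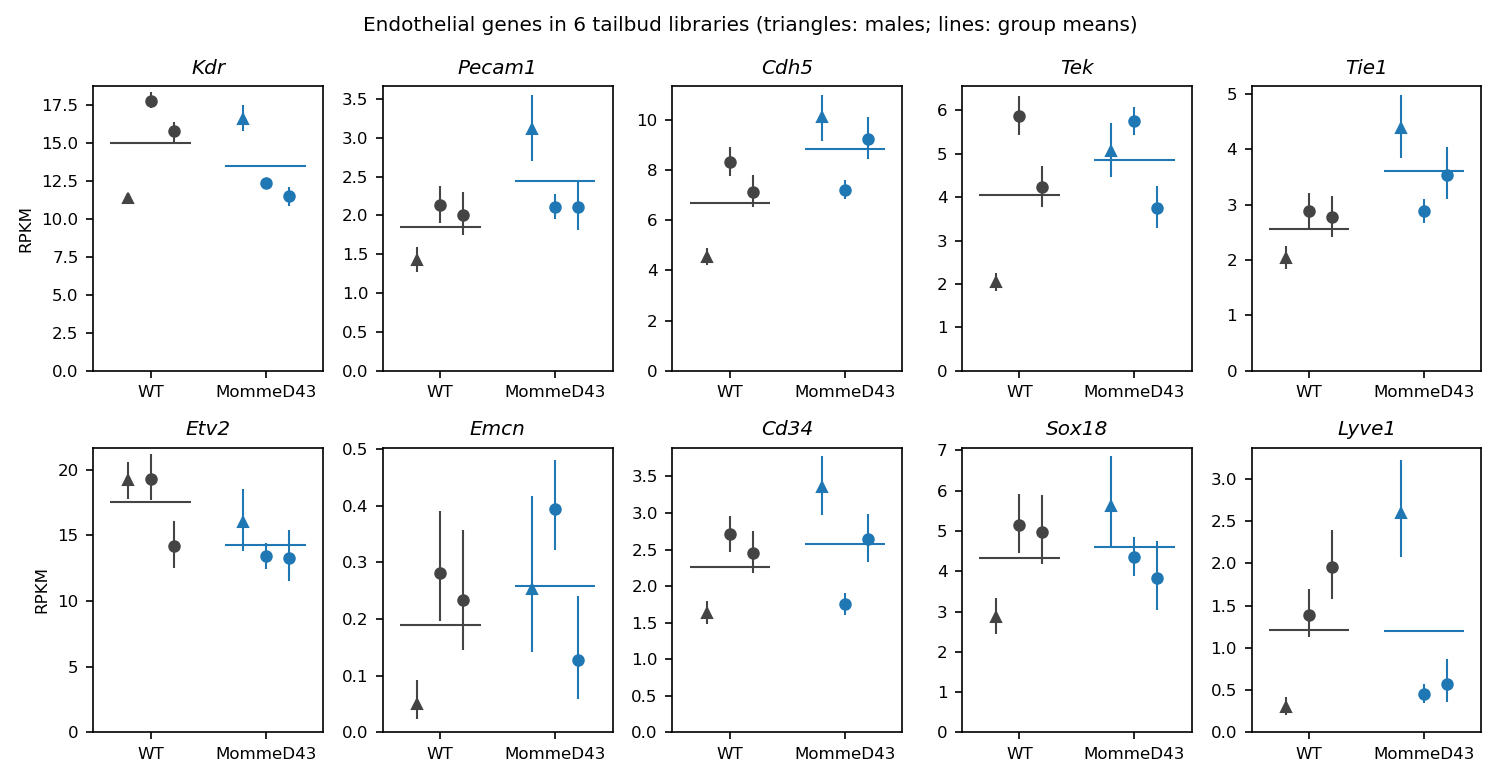
RPKM (vertical axes, from 0) of the 10 endothelial genes in 3 WT (grey) and 3 MommeD43 (blue) libraries; triangles mark the male libraries (replicate 1), bars the exact 95% counting intervals and lines the group means. WT replicate 1 is the lowest library for every gene except Etv2, and the groups overlap for all 10 genes.

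The receptors were at intermediate to high levels. Kdr (chr5:75932827-75978458), the main VEGF receptor of endothelial cells and their precursors, was at 11.4, 17.8 and 15.8 RPKM in WT replicates 1, 2 and 3 and at 16.6, 12.4 and 11.5 RPKM in MommeD43 replicates 1, 2 and 3. The lowest WT library was the male and the highest MommeD43 library was the male, so that the groups overlapped. The difference was −0.14 ± 0.19 on the log2 RPKM scale (SE, n = 3 against 3), with an adjusted p of 0.999 (limma, Benjamini-Hochberg adjustment over 13617 autosomal genes). Tek (chr4:94739289-94874976), the angiopoietin receptor Tie2, was at 2.04, 5.87 and 4.23 RPKM in WT and at 5.05, 5.74 and 3.75 RPKM in MommeD43. WT replicate 1 stood apart at the bottom and the other 5 libraries were mixed, with a log2 fold change of 0.37 ± 0.35 (adjusted p = 0.999, limma). Without WT replicate 1 the sign turned, to −0.06.

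Tie1 (chr4:118471191-118490061), the partner of Tek without a well-defined ligand of its own, was at 2.04, 2.88 and 2.77 RPKM in WT and at 4.38, 2.88 and 3.54 RPKM in MommeD43. MommeD43 replicate 2 equalled WT replicate 2 to 3 digits, and the other MommeD43 libraries were above all WT libraries. Its log2 fold change of 0.48 ± 0.19 gave the only unadjusted p under 0.05 among the 10 genes (adjusted p = 0.999, limma).

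Genes of adhesion and cell contacts followed a like course. Cdh5 (chr8:104101625-104144511), which encodes VE-cadherin of the endothelial adherens junction, was at 4.54, 8.31 and 7.14 RPKM in WT and at 10.1, 7.22 and 9.23 RPKM in MommeD43. The WT male was the lowest and the MommeD43 male the highest of the 6 libraries. The log2 fold change was 0.44 ± 0.22 (adjusted p = 0.999, limma) and was 0.18 without WT replicate 1. Pecam1 (chr11:106654217-106750628), the adhesion molecule CD31, was at 1.43, 2.13 and 2.01 RPKM in WT and at 3.11, 2.11 and 2.11 RPKM in MommeD43. The 4 female libraries lay within 2.01 to 2.13 RPKM, and both males lay outside that range, on opposite sides. Its log2 fold change was 0.39 ± 0.22 (adjusted p = 0.999, limma).

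The sialomucin genes differed in level. Cd34, a surface glycoprotein of endothelial and blood progenitor cells, was at 1.63, 2.71 and 2.45 RPKM in WT and at 3.35, 1.75 and 2.64 RPKM in MommeD43, a log2 fold change of 0.18 ± 0.27 (adjusted p = 0.999, limma). The groups overlapped, and the value turned to −0.046 without WT replicate 1 and to −0.039 without MommeD43 replicate 1. Emcn (chr3:137341067-137432185), encoding endomucin, rested on 10, 36 and 21 reads in WT and on 15, 101 and 9 reads in MommeD43. That is 0.0505, 0.282 and 0.234 RPKM in WT and 0.253, 0.395 and 0.127 RPKM in MommeD43, each above the level of 3 reads in its own library (0.0117 to 0.0506 RPKM). The exact 95% counting interval of MommeD43 replicate 3, 0.0581 to 0.241 RPKM, overlapped those of 4 of the other 5 libraries. The log2 fold change of 0.64 ± 0.72 was within its error (adjusted p = 0.999, limma) and was −0.14 without WT replicate 1.

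The transcription factor genes parted. Etv2 (chr7:30633616-30635852) was at 19.2, 19.3 and 14.2 RPKM in WT and at 16.0, 13.4 and 13.3 RPKM in MommeD43. It was the most even of the 10 genes, with a 1.45-fold range over the libraries, and WT replicate 1, the lowest library for the other 9 genes, was level with WT replicate 2. The log2 fold change was −0.29 ± 0.13 (adjusted p = 0.999, limma), below 0 in females (−0.31) and males (−0.26) alike. Sox18 (chr2:181669836-181671640), a factor of endothelial differentiation, was at 2.87, 5.15 and 4.98 RPKM in WT and at 5.63, 4.35 and 3.82 RPKM in MommeD43, and its log2 fold change of 0.12 ± 0.24 (adjusted p = 0.999, limma) turned to −0.16 without WT replicate 1 and to −0.04 without MommeD43 replicate 1. Within each library, the ratio of Etv2 to Cdh5 was 4.22 in WT replicate 1 and 1.44 to 2.33 in the other 5.

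Lyve1 (chr7:110850607-110863239), a hyaluronan receptor known from lymphatic endothelium that also marks endothelium of the yolk sac and some macrophages, had the widest range, 8.67-fold. It was at 0.299, 1.39 and 1.96 RPKM in WT and at 2.59, 0.449 and 0.576 RPKM in MommeD43, on 22 to 96 reads a library. The WT females were above the MommeD43 females and the WT male was below the MommeD43 male. Over all libraries these opposite differences left a log2 fold change of −0.09 ± 0.82 (adjusted p = 0.999, limma), which was 0.19, 0.44, 0.39 and 0.21 without WT replicate 2, WT replicate 3, MommeD43 replicate 2 and MommeD43 replicate 3, respectively.

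In all, none of the 10 genes passed an adjusted p of 0.05 between genotypes (limma), where 0.0% of all tested genes did, and 1 of 10 had an unadjusted p under 0.05, against 2.4% of all tested genes. No gene had groups that did not overlap, against 7.08% of all tested genes. The log2 fold change was above 0 for 7 of 10 genes, against 51.0% of all tested genes, with a median of 0.27 against 0.00. Both figures rested on WT replicate 1: without it 3 of 10 genes were above 0 (50.1% of all tested genes) and the median was −0.10 (the count was added after the data were seen), and without MommeD43 replicate 1 they were 5 of 10 and 0.09. The replicate samples are separate embryos, and the p-values measure the spread between them.

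**Figure D2:**
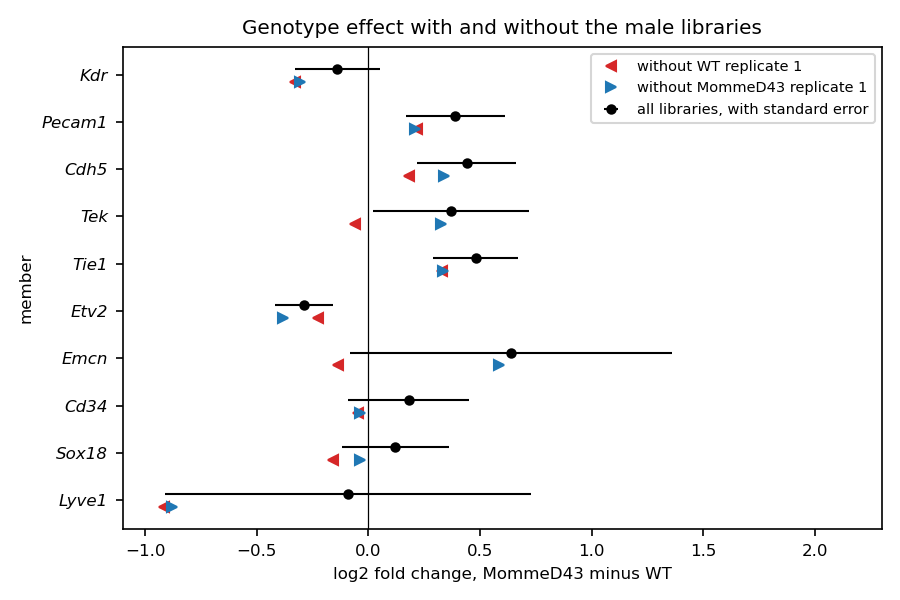
Log2 fold change (MommeD43 minus WT, horizontal axis) of the 10 genes from all 6 libraries (black, with standard error) and with the male library of either genotype left out (red, blue). Tek and Emcn change sign without WT replicate 1, and Cd34 and Sox18 without either male.

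The genotype difference had a higher value for the male pair than for the females in all 10 genes, where 47.9% of all tested genes had a difference of that sign. The comparison sets 1 WT male and 1 MommeD43 male against 2 and 2 females, and, with no replicate of either male, the fit assumes that males vary as the females do. In the male pair the median log2 fold change of the 10 genes was 1.11, and in the females −0.23. Lyve1 was the only one of the 10 to pass an adjusted p of 0.05 for the difference (4.81 ± 0.47 on the log2 scale, adjusted p = 0.0263, limma interaction term), where 37 of 13617 genes (0.272%) passed. Its log2 fold change was 3.12 for the males and −1.70 for the females. The call was lost without WT replicate 2 (adjusted p = 0.111) and without WT replicate 3 (adjusted p = 0.183), with the difference still at 5.06 and 4.57. Without MommeD43 replicate 2, or without MommeD43 replicate 3, 5 of the 10 genes passed, and so did 4.08% and 1.62% of all tested genes.

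With an unadjusted p under 0.05 there were 8 of the 10 genes, against 10.8% of all tested genes. For Kdr the log2 fold change was 0.55 for the males and −0.49 for the females (difference 1.04 ± 0.15, adjusted p = 0.0796, limma). For Sox18 the values were 0.98 and −0.31 (difference 1.29 ± 0.20, adjusted p = 0.0928, limma). Pecam1, Cdh5, Tek, Tie1 and Cd34 had male values of 1.05 to 1.31 and female values of −0.26 to 0.18, with differences of 0.92 to 1.41 and adjusted p of 0.202 to 0.318 (limma). Emcn had the second largest difference, 2.52, with an SE of 1.07 (adjusted p = 0.468, limma). Etv2 was the exception, with a difference of 0.06 ± 0.24 (adjusted p = 0.942, limma).

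**Figure D3:**
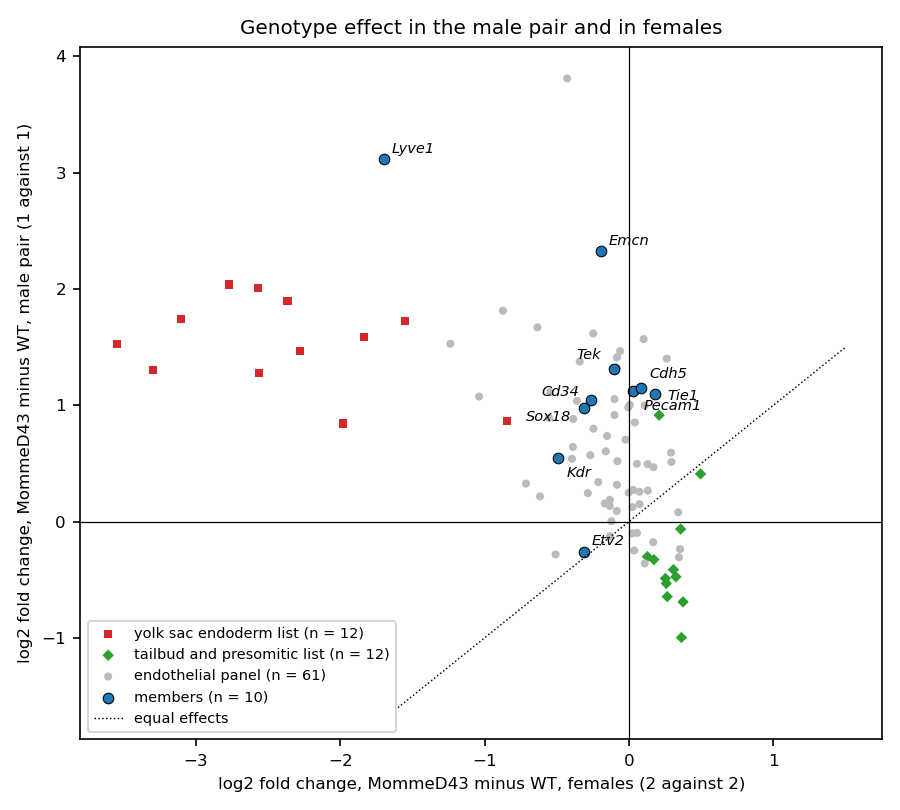
Log2 fold change (MommeD43 minus WT) in the females (horizontal axis, 2 against 2) and in the male pair (vertical axis, 1 against 1) for the 10 members (blue), 61 other endothelial genes (grey), 12 yolk sac endoderm genes (red) and 12 tailbud and presomitic genes (green); the dotted line marks equal effects. The members lie above the line, Etv2 close to it and Lyve1 farthest from it, at −1.70 and 3.12.

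The order of the libraries was as follows. WT replicate 1 was the lowest of the 6 libraries for 9 of the 10 genes, against 20.0% of all tested genes. MommeD43 replicate 1 was the highest for 6 of the 10 (Pecam1, Cdh5, Tie1, Cd34, Sox18 and Lyve1), against 14.4% of all tested genes. Both held for these 6 genes, against 2.85% of all tested genes. In the females, 3 of the 10 log2 fold changes were above 0, against 51.9% of all tested genes. These were Pecam1, Cdh5 and Tie1, at 0.03 to 0.18, and the rest ran from −0.10 in Tek to −1.70 in Lyve1. The mean of the 10 genes, each centred on its own mean, was −0.75, 0.29 and 0.15 on the log2 scale in WT replicates 1, 2 and 3, and 0.49, −0.04 and −0.14 in the MommeD43 replicates, with a pooled within-group SD of 0.47. Depth moved the other way in part: WT replicate 1 had 36617081 reads and MommeD43 replicate 1 had 10957916, while the deepest library, MommeD43 replicate 2 (47298348), was near the middle. The part of depth in this pattern was not tested.

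The 10 genes varied more between libraries than the median gene. Their SD of log2 RPKM over the 6 libraries had a median of 0.38, against 0.14 for all tested genes, and ran from 0.25 in Etv2 and 0.29 in Kdr to 1.07 in Emcn and 1.26 in Lyve1. Their correlations over the 6 libraries, which include both genotypes, are given as a description. The median Pearson correlation of the 45 pairs was 0.65, against 0.003 for all pairs of tested genes, and 14 pairs (31.1%) were at 0.8 or more, against 3.9% of all pairs. The 36 pairs without Etv2 were all above 0, between 0.382 and 0.972, with a median of 0.74. The 9 pairs with Etv2 ran from −0.408 to 0.312, and 2 of them were above 0. That sign did not hold in other measures. By Spearman rho 7 of the 9 were above 0 (−0.2 to 0.429). Correlations were also taken without the 2 libraries farthest from the median of 1 gene of the pair, the earlier in the opening list. By these, 8 of the 9 had r above 0 (−0.343 to 0.918), but the libraries left out differed between pairs. Taken as deviations from the genotype means, the median of the 45 pairs was 0.81 and that of all pairs 0.004. Without WT replicate 1 the median fell to 0.45.

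The closest pair was Tek and Emcn (Pearson r = 0.972, exact permutation p = 0.00278, adjusted p = 0.0625 over 45 pairs, and Spearman rho = 0.943, exact permutation p = 0.0167, adjusted p = 0.202), and r was 0.941 without the 2 libraries farthest from the median of Tek. For the junction gene Cdh5 and Tie1, r was 0.943 (exact permutation p = 0.00139, the smallest obtained, adjusted p = 0.0625) and rho was 1.0 (exact permutation p = 0.00278, adjusted p = 0.125), with r = 0.873 without the 2 extremes. For Sox18 and Lyve1, r was 0.901 (exact permutation p = 0.00972, adjusted p = 0.143) and rho was 0.886 (exact permutation p = 0.0333, adjusted p = 0.202), with r = 0.931 without the extremes. Pecam1 and Tie1 had a like r, 0.949 (exact permutation p = 0.0153, adjusted p = 0.143, rho = 0.829, exact permutation p = 0.0583, adjusted p = 0.202), which fell to 0.416 without the extremes and so rested on those libraries. Over all pairs, 13 had an unadjusted p under 0.05 and 0 an adjusted p under 0.05. With 720 orders of the 6 libraries, a single pair could not pass the adjustment. The same held for rho, with 6 and 0. Here and above, the extremes were the 2 libraries farthest from the median of the pair's gene that comes first in the opening list. Without them, 14 pairs were at 0.5 or more and 17 were below 0.

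**Figure D4:**
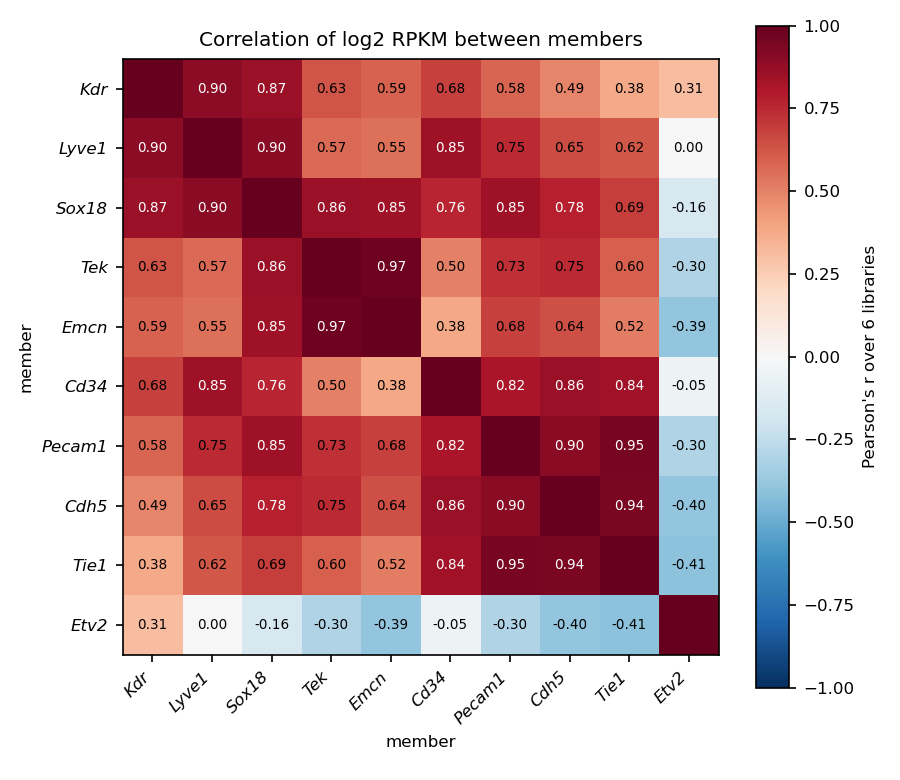
Pearson correlation of log2 RPKM over 6 libraries for each pair of the 10 genes (colour scale from −1 to 1, values printed in the cells). The 36 pairs without Etv2 are above 0, between 0.382 and 0.972, and 7 of the 9 pairs with Etv2 are below 0, although 7 of these 9 are above 0 by Spearman rho.

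A wider endothelial panel of 65 genes, 61 of them tested, gave the rest of the pathway. None of the 61 passed an adjusted p of 0.05 between genotypes (limma), 2 (3.28%) had an unadjusted p under 0.05, against 2.4% of all tested genes, 42 (68.9%) were above 0, against 51.0%, and the median log2 fold change was 0.10. Ecscr, an endothelial surface regulator of chemotaxis and apoptosis, was at 5.33, 6.55 and 5.53 RPKM in WT and at 7.17 to 7.60 RPKM in MommeD43. Its groups did not overlap, the only such case in the panel (1.64% of it, against 7.08% of all tested genes), and the log2 fold change was 0.37 ± 0.10 (adjusted p = 0.999, limma). Efnb2, the arterial ephrin-B2 ligand, was at 3.53, 4.46 and 3.69 RPKM in WT and at 4.41 to 4.89 RPKM in MommeD43, with overlapping groups and a log2 fold change of 0.27 ± 0.12 (adjusted p = 0.999, limma).

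Ligands and receptors that act with the members, picked for that role after the values were known, had log2 fold changes of −0.08 to 0.39. Vegfa, the main ligand of Kdr, had a log2 fold change of 0.18 ± 0.08, and Vegfc, the ligand of Flt4, one of −0.08 ± 0.23. Flt1, a VEGF receptor that limits signalling through Kdr, had 0.22 ± 0.21, and the co-receptor Nrp1 had 0.31 ± 0.18. Angpt1 and Angpt2, the ligands of Tek, had 0.39 ± 0.36 and 0.13 ± 0.23. All 6 had an adjusted p of 0.999 between genotypes (limma). Their differences between male pair and females ran from −0.65 in Angpt2 to 0.94 in Vegfc, with 0.81 in Nrp1.

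The difference between the male pair and the females was above 0 in 53 of the 61 panel genes (86.9%, against 47.9% of all tested genes). An unadjusted p under 0.05 was reached by 27 (44.3%, against 10.8%), 25 of them with a positive difference, and an adjusted p under 0.05 by 0 (limma). By group of the panel they were 13 of 22 surface genes, 8 of 16 transcription factor genes, 3 of 8 genes of the VEGF axis, 3 of 12 of the Notch, apelin and BMP9 axis, and 0 of 3 of the angiopoietin axis. Of the 3 in the Notch, apelin and BMP9 axis, Jag1 (−0.47) and Ephb4 (−0.35) had negative differences. The correlation of each list's mean with the mean of the 10 members was 0.988 for the surface genes (rho = 1.0), 0.888 for the transcription factors, 0.856 for the VEGF axis, 0.609 for the Notch, apelin and BMP9 axis and 0.109 for the angiopoietin axis, as descriptions over 6 shared libraries. Without the 2 libraries farthest from the median of the members' mean, both males, these values were 0.941, 0.93, 0.413, 0.267 and −0.312. WT replicate 1 was the lowest library for 31 of the 61 panel genes (50.8%, against 20.0% of all tested genes) and MommeD43 replicate 1 the highest for 25 (41.0%, against 14.4%).

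The genes whose pattern over the 6 libraries was most like the mean of the 10 members were searched among 2045 genes outside the set with a mean of at least 1 RPKM and an SD of at least 0.2. The first 8 by Pearson r were Ier3 (r = 0.991), Thsd1 (0.990), Icam2 (0.983), Itga9 (0.982), Cd59a (0.981), D030007L05Rik (0.979), Calcrl (0.977) and Emilin1 (0.974). Icam2, an adhesion molecule of endothelium and blood cells, was at 0.703, 1.85 and 1.45 RPKM in WT and at 2.16, 1.35 and 1.40 RPKM in MommeD43. Calcrl, a receptor for adrenomedullin and related peptides, was at 1.27, 2.51 and 2.28 RPKM in WT and at 2.47, 2.04 and 1.96 RPKM in MommeD43. WT replicate 1 was the lowest of the 6 libraries for all 8 genes. They were picked for following the members' mean, which is itself lowest there, so this is no further result. Of 33 panel genes in this search, 13 (39.4%) were in the first 100 places, which hold 4.89% of all genes searched, and 15 (45.5%) had r of 0.8 or more, against 8.75% of all.

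Markers of other cell types are given for whole lists, some of which moved with the endothelial genes in some libraries only. All 12 yolk sac endoderm genes (such as Ttr, Afp and Apoa1, carrier proteins of plasma and yolk sac) were measured, and their summed level was 176, 301 and 335 RPKM in WT and 514, 73.7 and 61.4 RPKM in MommeD43. MommeD43 replicate 1 was the highest library for 12 of the 12, against 14.4% of all tested genes, as it was for Lyve1 and 5 other members. Their median log2 fold change was 1.56 for the males and −2.46 for the females. For that difference 9 of the 12 passed an adjusted p of 0.05 (limma), against 0.272% of all tested genes. WT replicate 1, lowest for 9 of the 10 endothelial genes, was the lowest library for 0 of the 12, against 20.0% of all tested genes. The mean of this list had r = 0.503 and rho = 0.771 with the mean of the members, and r = 0.932 without both males, which are the 2 libraries farthest from the median of the members' mean. None of its 12 genes reached an r of 0.8.

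Primitive erythroid genes, 8 of 11 tested, summed to 11.1, 490.0 and 208 RPKM in WT and to 28.3, 223 and 26.1 RPKM in MommeD43. This sum was low in the 2 male libraries and MommeD43 replicate 3. MommeD43 replicate 1 was thus low here and high for the endothelial genes. Not every gene followed the sum: Epor was at 2.8 and 3.15 RPKM in MommeD43 replicates 1 and 3, against 2.13 to 2.43 in WT. Hba-a1 was at 11.9 RPKM in MommeD43 replicate 1 and 10.1 in MommeD43 replicate 2. The mean of the 8 tested genes had r = 0.505 and rho = 0.371 with the mean of the members, and r = 0.82 without both males. Markers of blood progenitors and macrophages summed to 0.787 to 1.59 RPKM, with Adgre1, Cx3cr1 and Gp9 under 3 reads in every library. Mrc1 was on 5 to 37 reads a library and Csf1r on 1 to 38. Their differences between male pair and females were 3.95 ± 0.98 and 0.94 ± 1.92 on the log2 scale. The mean of the 5 tested genes of this list had r = 0.676 with the mean of the members, and r = 0.792 without both males. The 12 tailbud and presomitic genes summed to 884, 637 and 630 RPKM in WT and to 649, 744 and 781 RPKM in MommeD43, highest in WT replicate 1, and their mean ran against that of the members (r = −0.807, rho = −0.771, and r = −0.915 without both males). Of these 12, T, Msgn1 and Wnt3a passed an adjusted p of 0.05 for a difference between male pair and females (limma). The direction was opposite to Lyve1, and 0.272% of all tested genes passed. The mean of the allantois and lateral mesoderm list, also posterior tissue that forms vessels, had r = 0.64 with the mean of the members, that of the hindgut list 0.645, of the mural cell list 0.544, of the somite list 0.56, of the neural stem list 0.173 and of the cardiac list −0.175. Without both males these were 0.285, −0.12, −0.233, 0.642, −0.0236 and −0.484, so that the first 3 rested on the males. The part of other cell types, or of where the tissue was cut, in the pattern of the endothelial genes was not tested.

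**Figure D5:**
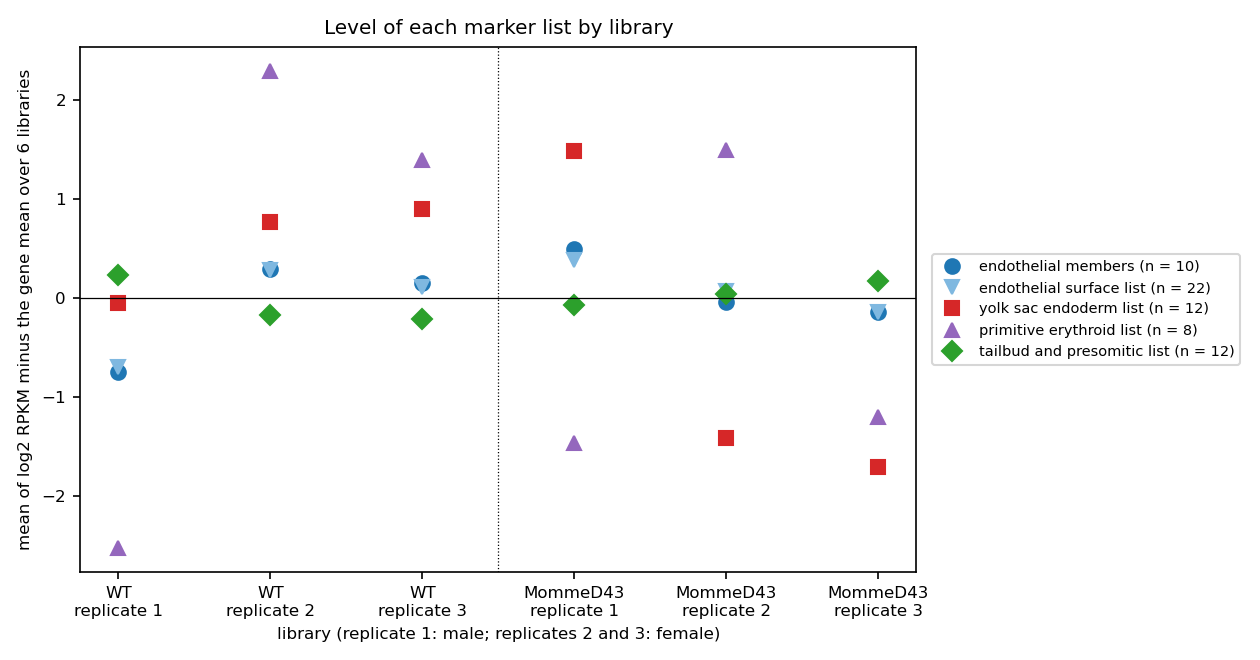
Mean of centred log2 RPKM (vertical axis) of the 10 endothelial members, the endothelial surface list, the yolk sac endoderm list, the primitive erythroid list and the tailbud and presomitic list in each of the 6 libraries (horizontal axis). The endothelial points lie lowest in WT replicate 1 (−0.75 for the members) and highest in MommeD43 replicate 1 (0.49), where the erythroid list is low (−1.46) and the yolk sac list highest (1.48).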

How the data were processed

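Tailbud RNA of 6 single embryos was sequenced from poly(A) libraries. According to the study's methods and the labels' processing notes, the authors trimmed reads with Trim Galore 0.4.4, mapped them with HISAT2 2.0.5 to GRCm38.p6 and quantified genes in SeqMonk. The deposited values are log2 RPKM, which the authors made by scaling the reads of each gene to library size and transcript length and taking the log2. Whether strand was used in counting is not given in the sources used here. The authors' 2 group mean columns were not used, and 0 other value columns belonged to no sample.

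Of 35591 entries, 35555 were matched to GENCODE M21, whose exon lengths gave back whole reads (98.7% of 41851 values under 100 reads were whole within 0.02). Genes without a read sat at 0.9 read. Library totals were 10957916 to 47298348 reads. Exact (Clopper-Pearson) 95% intervals and the floor of 3 reads cover counting error only.

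Genes were kept with at least 10 reads, scaled to median depth, in at least 3 libraries and 15 in all (14134 genes, 13617 autosomal and tested). Groups, sexes and replicate numbers came from the labels. Log2 RPKM was compared between MommeD43 and WT by limma (version 3.58.1 under R 4.3.3), its prior variance following mean expression and no pseudocount added, and in a model with genotype, sex and their interaction, which leaves 2 residual degrees of freedom. P-values were adjusted by Benjamini-Hochberg over all tested autosomal genes, at 0.05. The fits were tested on simulated data with 200 changed genes of 13617. All genes had the same relative spread between libraries, unlike the genes here. The genotype fit recovered 95.5% of changes of 1 on the log2 scale with 12 false calls, and made 0 calls where no gene was changed. The interaction fit recovered 98% of changes of 2 with 33 false calls, so that its adjusted p may be too lenient. Pair correlations had exact two-sided permutation p-values. The text names all 10 members, panel genes with an unadjusted p under 0.05, the 8 genes most like the members' mean, markers given beside a result, and 6 ligands and receptors picked after their values were known. Members, lists and alternatives were chosen with earlier results of these data known.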

Additional observations from a re-analysis of the deposited data

Results flagged for a closer look

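The genotype difference of Lyve1 was 4.81 larger, on the log2 scale, in the male pair than in the females (adjusted p = 0.0263, limma interaction term). Its level was 0.299 RPKM in the WT male and 2.59 RPKM in the MommeD43 male, and 1.39 and 1.96 RPKM in the WT females against 0.449 and 0.576 RPKM in the MommeD43 females. In the 10 alternatives, all of which kept both males, the difference ranged from 2.28 to 5.06. This fit made 33 false calls in simulated data, so its adjusted p may be too lenient.

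Ier3, the gene whose pattern was closest to the members' mean, had a difference of 2.75 (2.17 for the males and −0.58 for the females). It was picked for following that mean, which carries the same contrast, so the value is a description and no further result. The test passed for 9 of the 12 yolk sac endoderm genes, all with a larger log2 fold change in the male pair. It passed for 3 of the 12 tailbud and presomitic genes, T, Msgn1 and Wnt3a, all with a smaller one. Of all tested genes, 0.272% passed. In each of these results the males are 1 embryo a genotype from 1 mother, so that sex, litter and the single embryo cannot be told apart.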

How the results depend on the processing

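No member passed an adjusted p of 0.05 between genotypes in any of the 15 alternatives tried for each (median-ratio scaling, pseudocounts of 0.1 and 1, filters, sex as a covariate, a replicate block, females only, voom on recovered reads, and leaving out each library). Adjusted p ran from 0.154 to 1.0, and 14 of the 150 values changed sign, each with 1 or both males, or 1 female, left out. With females only, 10 genes of all autosomal genes were called instead of 0 (1188 with an unadjusted p under 0.05 instead of 327), the median of the members was −0.23 instead of 0.27, and log2 fold changes changed sign for Tek (−0.10), Emcn (−0.20), Cd34 (−0.26) and Sox18 (−0.31). With 1 library left out at a time, the median ranged from −0.10 (without WT replicate 1) to 0.45 (without WT replicate 3), and with a pseudocount of 1 it was 0.11. When 1 library was left out, the values of genes that changed sign ranged from −0.061 to 0.70 for Tek, −0.14 to 1.10 for Emcn, −0.046 to 0.43 for Cd34, −0.16 to 0.27 for Sox18 and −0.92 to 0.44 for Lyve1.

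For the difference between male pair and females, 37 genes were called, 111 with all genes that had a read and 121 with voom, and 5 (without WT replicate 3) to 556 (without MommeD43 replicate 2) when 1 female library was left out. Members called were 1, 3 and 2 in the first settings, and 0 (without WT replicate 2, or 3) to 5 (without MommeD43 replicate 2, or 3). The difference of Etv2 ranged from −0.17 (without WT replicate 2) to 0.28. The median pairwise correlation ranged from 0.45 (without WT replicate 1) to 0.82 (without MommeD43 replicate 2), and was 0.60 with a pseudocount of 1. The cause of these shifts was not tested.

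Replicate 1 of both genotypes shared a mother and a sex, while replicates 2 and 3 shared only number and sex, and deviations of same-numbered libraries correlated at −0.026, 0.167 and −0.173, which was not taken as pairing. With a replicate block, 0 autosomal genes and 0 members were called, 307 autosomal genes had an unadjusted p under 0.05, and WT replicate 1 did not correlate best with MommeD43 replicate 1. Depth limits Emcn most, with 9 to 101 reads a library.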
